A study of Rattus norvegicus with 14 samples.

Results

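The genes described here are the ligands and receptors of transforming growth factor beta (TGF-beta) and the growth differentiation factors (GDFs), on 2-colour arrays of rat small intestine. They were chosen by gene symbol in the platform annotation, as every probe named Tgfb1, Tgfb2, Tgfb3, Tgfbr1, Tgfbr2, Tgfbr3 or Gdf followed by a digit. Of 4952 probes 11 matched, for 9 of the 4156 genes with a symbol: 5 probes for the ligand genes Tgfb1, Tgfb2 and Tgfb3, 2 for the receptor genes Tgfbr1 and Tgfbr3, and 4 for Gdf9, Gdf10, Gdf11 and Gdf15. No probe matched Tgfbr2, the type II receptor gene, so it was not analysed here. The family was proposed with results of these arrays known, and Tgfb2, Tgfb3 and Gdf10 were singled out in it. Their ratios are therefore given as a description without p-values, while the other 6 genes are given with the test across all probes.

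The gut of 20 day old rats was perfused for 4 h or 20 min with an HG or an HF solution, and each array compares 2 RNAs by colour. HG and HF are not spelled out in the labels and are read here as high glucose and high fructose, as known of the study. Perfusion for 4 h is covered by 5 arrays and perfusion for 20 min by 4, each pairing HG and HF RNA of equal number. On 3 arrays, called same-RNA arrays, both channels held 1 RNA from 4 h perfusion, labelled 1HG, 3HG or 3HF. By these names their RNA is that of 4 h arrays 1 and 3, so they are not independent of those arrays. A further array at 4 h, array 6, repeated pair 2, and a last array carried the primers of a labelling kit and no named tissue RNA. No array is labelled as intestine without perfusion. The labels name no layer of the gut wall and do not tie pairs to animals, so a p-value here reflects array spread, which may be technical. A ratio carries no level, so the presence of intestinal marker genes could not be checked.

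TGF-beta ligands are secreted in a latent form and, once released, bind a type II receptor that recruits and activates the type I receptor encoded by Tgfbr1. The type I receptor phosphorylates Smad proteins, which enter the nucleus and change transcription, and betaglycan, the product of Tgfbr3, is a co-receptor known for presenting TGF-beta2. GDFs are relatives of these ligands within the same superfamily. In the gut TGF-beta is known for restraining epithelial proliferation, for effects on matrix and smooth muscle, and for its part in tolerance to luminal antigens.

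Values are log ratios, read as log2, with the median of each array set to 0. No label states the direction or the base, but ratios above 0 probably stand for more RNA with HF. The basis is Slc2a5, the gene of the fructose transporter GLUT5, whose induction by fructose is known. Its ratio averaged 1.65 ± 0.25 (SD, n = 5) at 4 h, -0.32 at 20 min, -0.04 ± 0.17 (n = 3) on the same-RNA arrays and -1.66 on array 6, whose title marks HG with a 5 and HF with a 3, read as Cy5 and Cy3. The mean at 20 min lay on the other side of 0, so Slc2a5 gives no such basis for the 20 min arrays. Array 6 was kept out of the tests. Over all probes the SD lay between 0.33 and 0.40 on the 9 arrays in the tests at 4 h and 20 min, against 0.82 on array 6 and 1.39 on the same-RNA array 1HG. On 1HG 228 probes lay beyond 2 in size, 149 of them among the first 750 probe numbers and 78 above number 4500, where none of the 11 probes lies. Precision is limited by how few arrays there are.

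Promoters are shown for Tgfb2 and Gdf10, the genes with the largest ratios at 4 h. They run from 250 bases before to 50 bases after a transcript start given in the RefSeq table, on build GRCr8, which for both genes lies inside the gene span printed further on, and capitals mark the E-box letters CACGTG, the core of elements bound by carbohydrate-responsive and other basic helix-loop-helix factors. All 9 genes were found in the table, with 10 windows because Gdf15 has 2. The search covered both strands for CACGTG, the cyclic AMP element TGACGTCA, TATAAA and the Smad element GTCTAGAC. These occur in 6.42%, 1.83%, 14.2% and 0.197% of the 33469 promoters of the same length.
Tgfb2 (chr13:100792636-100792935, minus strand): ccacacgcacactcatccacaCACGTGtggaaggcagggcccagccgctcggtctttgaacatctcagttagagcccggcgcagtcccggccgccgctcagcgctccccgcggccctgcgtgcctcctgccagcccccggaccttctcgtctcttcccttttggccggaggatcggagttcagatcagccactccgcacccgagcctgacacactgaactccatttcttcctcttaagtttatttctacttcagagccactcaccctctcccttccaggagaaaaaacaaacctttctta
Gdf10 (chr16:9243262-9243561, plus strand): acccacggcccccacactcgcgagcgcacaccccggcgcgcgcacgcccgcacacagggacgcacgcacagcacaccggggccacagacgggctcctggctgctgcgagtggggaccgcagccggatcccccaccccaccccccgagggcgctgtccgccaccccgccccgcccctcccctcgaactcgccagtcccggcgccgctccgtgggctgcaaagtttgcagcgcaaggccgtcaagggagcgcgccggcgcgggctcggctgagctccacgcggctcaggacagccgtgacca
The E-box letters occur once in the Tgfb2 window, beginning at position -229 from the start, and in none of the other 9 windows. The letters of the 4 motifs are all missing from the Gdf10 window, which is 76.0% G and C, against 59.0% for Tgfb2. TATAAA is in the windows of Gdf11, at -185, and in 1 of the 2 windows of Gdf15, at -28. These are matches of letters only, and nothing on binding was measured.

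Tgfb2, the ligand gene on chromosome 13 (100691540 to 100793227 in GRCr8), had the lowest mean ratio of the family at 4 h, at 20 min and on the same-RNA arrays, on 1 of its 2 probes. Probe 1953 gave -2.28, -1.98, -1.94, -1.75 and -1.46 on the 5 arrays at 4 h, -1.01, -0.75, -0.54 and -0.60 on the 4 arrays at 20 min, and -1.0, -0.82 and -0.97 on the same-RNA arrays. All 5 arrays at 4 h lay below every array of both other sets, while the arrays at 20 min and the same-RNA arrays overlapped. The ratio of this probe was thus far below 0 also where both channels held 1 RNA. Only 25 of 4952 probes had all 3 same-RNA ratios as low as its highest one. The primer array, by contrast, gave 0.18.

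Relative to the same-RNA mean of -0.93 ± 0.09 (SD, n = 3), probe 1953 was lower by -0.95 ± 0.17 (SE) at 4 h, where its mean was -1.88 ± 0.30 (SD, n = 5), and by -1.10 with the pair number as a block. At 20 min, with a mean of -0.72 ± 0.21 (SD, n = 4), the difference from the same-RNA arrays was 0.21 ± 0.17 (SE). Between the times the difference was -1.16 ± 0.15 (SE; 2.23-fold lower at 4 h), the 14th largest in size of 4952. With each of the 12 arrays left out in turn it lay between -1.26 and -1.06, and with the 2 probes averaged to 1 value per gene it was -0.65.

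The second Tgfb2 probe did not follow the first. Probe 3090 gave -0.47, -0.14, 0.00, -0.36 and -0.16 at 4 h, -0.15, -0.23, -0.02 and 0.06 at 20 min, and -0.40, -0.08 and -0.26 on the same-RNA arrays. The 3 sets overlapped throughout, and the difference between 4 h and 20 min was -0.14 ± 0.12 (SE). Probe 1953 lay below probe 3090 by a mean of -1.66 at 4 h, -0.64 at 20 min and -0.68 on the same-RNA arrays. Among 170 genes with exactly 2 probes this was the 2nd largest gap in the difference between the times, 1.02 against a median gap of 0.21. Over the 13 arrays with tissue RNA the 2 probes correlated at Spearman 0.36 and Pearson 0.29, a description in which the arrays and their RNA are shared. The sequences of the probes were not used here, and which transcripts each probe detects was not tested.

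**Figure D1:**
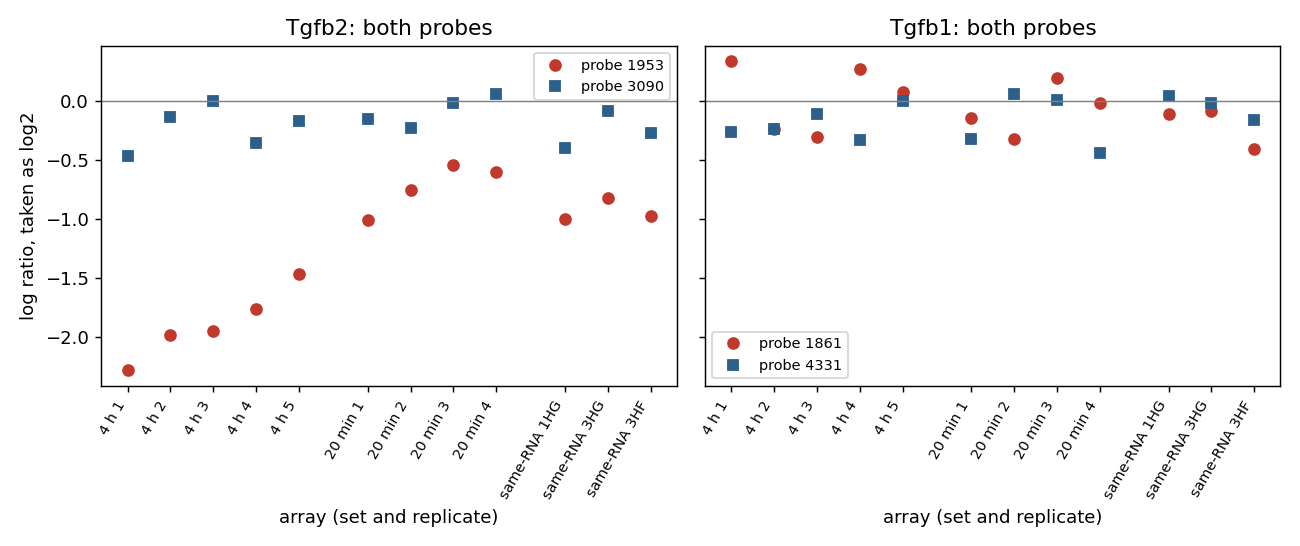
Log ratio (taken as log2, vertical axis) of both probes of Tgfb2 (left) and of Tgfb1 (right) on the arrays at 4 h, at 20 min and with 1 RNA in both channels (horizontal axis). Tgfb2 probe 1953 lies between -2.28 and -1.46 at 4 h and stays below 0 on the same-RNA arrays, while probe 3090 lies between -0.47 and 0.06 throughout.

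Tgfb1, the ligand gene known for its immune and fibrotic roles, gave ratios near 0 on both of its probes. Probe 1861 read 0.34, -0.23, -0.31, 0.27 and 0.08 at 4 h, -0.14, -0.32, 0.19 and -0.01 at 20 min, and -0.11, -0.08 and -0.40 on the same-RNA arrays. Probe 4331 read -0.26, -0.23, -0.11, -0.33 and 0.00 at 4 h, -0.32, 0.06, 0.01 and -0.44 at 20 min, and 0.05, -0.01 and -0.16 on the same-RNA arrays. The sets overlapped on both probes. The differences between the times were 0.10 ± 0.16 and -0.01 ± 0.12 (SE; limma adjusted p = 0.867 and 0.991). Relative to the same-RNA arrays the 2 probes had opposite signs at 4 h, 0.23 ± 0.17 and -0.14 ± 0.13 (adjusted p = 0.644 and 0.724).

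Tgfb3, the third ligand gene, was near 0 on the arrays with tissue RNA and far from 0 on the primer array. Its probe gave -0.51, -0.06, -0.27, 0.11 and -0.13 at 4 h, 0.12, -0.01, -0.57 and -0.21 at 20 min, and 0.27, -0.18 and 0.19 on the same-RNA arrays. These sets overlapped, with means of -0.17 at 4 h and at 20 min against 0.09 on the same-RNA arrays. On the primer array the ratio was -1.32, the lowest of all 4952 probes there and the 2nd largest in size, where only 4 probes lay beyond 1. The other 10 probes of the family lay between -0.26 and 0.18 on that array. The low ratio of the primer array was thus not seen with tissue RNA.

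Of the receptor genes, Tgfbr1, the type I receptor, had higher ratios at 4 h than at 20 min by 0.42 ± 0.14 (SE), which did not pass the test (limma adjusted p = 0.214). It read 0.52, 0.66, 0.82, 0.95 and 0.26 at 4 h, 0.12, 0.32, -0.02 and 0.45 at 20 min, and 0.29, 0.18 and 0.25 on the same-RNA arrays. At 4 h 4 of the 5 arrays lay above every array of the other sets, and replicate 5 lay among them. The difference from the same-RNA arrays was 0.40 ± 0.16 at 4 h (adjusted p = 0.435) and -0.02 ± 0.16 at 20 min (adjusted p = 0.994). Without 4 h replicate 5 the difference between the times was 0.52, and without 20 min replicate 3 it was 0.34. Its same-RNA ratios lay on 1 side of 0 on all 3 arrays, as did those of both Tgfb2 probes and of Tgfb1 probe 1861. On array 6 it read 0.19, within the same-RNA range.

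Tgfbr3, the betaglycan gene, showed no such shift. Its ratios were 0.32, -0.21, -0.11, 0.10 and -0.17 at 4 h, -0.31, -0.17, 0.22 and -0.24 at 20 min, and -0.16, 0.17 and -0.33 on the same-RNA arrays. The difference between the times was 0.11 ± 0.15 (SE; limma adjusted p = 0.842), and all 3 sets overlapped.

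Gdf10, also known as Bmp3b, lies on chromosome 16 (9243434 to 9256788 in GRCr8) and had the highest mean ratio of the family at both times. On single arrays Tgfbr1 lay above it on 4 h replicate 3, as did Gdf11 and Tgfbr1 on 20 min replicate 4. Its probe read 1.01, 1.02, 0.60, 1.09 and 0.51 at 4 h, 0.74, 0.56, 0.89 and 0.36 at 20 min, and 0.01, -0.23 and 0.16 on the same-RNA arrays. All 9 arrays with HG and HF lay above all 3 same-RNA arrays, which held for 27 of 4952 probes (0.545%), and Gdf10 had the 2nd widest gap among them, 0.20. The difference from the same-RNA arrays was 0.87 ± 0.17 (SE; 1.83-fold) at 4 h and 0.66 ± 0.18 (1.58-fold) at 20 min. The difference between the times was 0.21 ± 0.15, with overlapping arrays. Array 6 read 0.99, on the same side as the other arrays at 4 h, and the primer array -0.10. If array 6 had its colours exchanged, a difference between HG and HF would change side there. The 0.99 would then be no repeat of the other arrays.

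The other GDF genes stayed close to 0. Gdf9, known as a factor of the oocyte, read 0.40, 0.08, -0.05, 0.07 and 0.00 at 4 h, 0.12, -0.13, -0.07 and -0.31 at 20 min, and -0.17, -0.30 and 0.07 on the same-RNA arrays. The differences of Gdf9 were 0.24 ± 0.13 (SE) at 4 h and 0.04 ± 0.14 at 20 min relative to the same-RNA arrays (limma adjusted p = 0.52 and 0.994). Its sets overlapped in every comparison.

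Gdf11, a close relative of myostatin, read -0.18, -0.24, -0.26, -0.17 and 0.23 at 4 h, 0.01, -0.01, 0.21 and 0.48 at 20 min, and 0.11, -0.10 and -0.11 on the same-RNA arrays. Its ratio at 4 h was lower than at 20 min by -0.29 ± 0.13 (SE), which did not pass (limma adjusted p = 0.363). The difference was -0.38 without 4 h replicate 5, whose 0.23 stood apart from the other 4 arrays at 4 h, and -0.19 without 20 min replicate 4.

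Gdf15, a cytokine known to rise with cell stress and to act through the brainstem receptor GFRAL, read -0.16, 0.46, 0.11, -0.34 and -0.19 at 4 h. It read 0.07, 0.06, -0.21 and -0.26 at 20 min and -0.02, -0.24 and 0.06 on the same-RNA arrays. The arrays at 4 h spread most widely here, with an SD of 0.32, the largest of the 11 probes, and they enclosed both other sets. The differences of Gdf15 were 0.04 ± 0.17 (SE) at 4 h and -0.02 ± 0.18 at 20 min from the same-RNA arrays, and 0.06 ± 0.16 between the times (limma adjusted p = 0.947, 0.994 and 0.932).

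**Figure D2:**
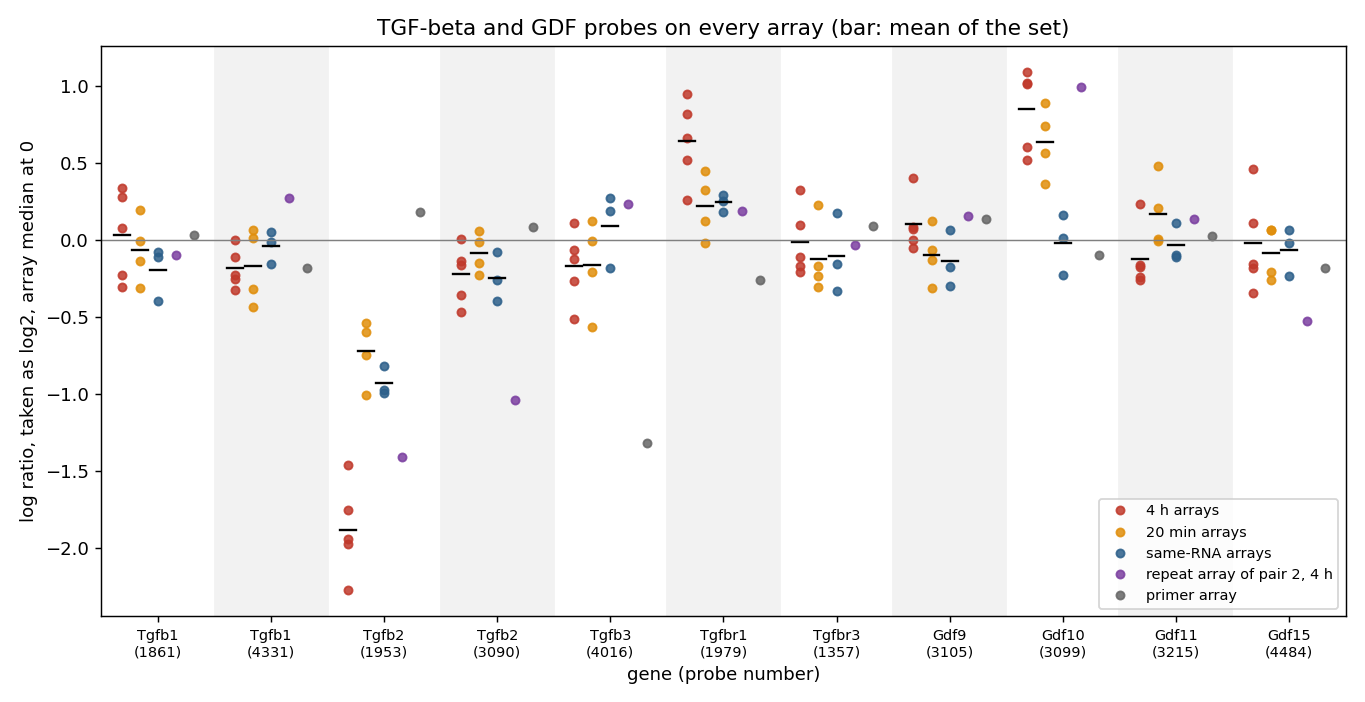
Log ratio (taken as log2, vertical axis) of each of the 11 probes (horizontal axis) on the arrays at 4 h, at 20 min, with 1 RNA in both channels, on array 6 and on the primer array, with a bar at the mean of each set. Tgfb2 probe 1953 at 4 h (-2.28 to -1.46) lies below all other probes at 4 h and Tgfb3 on the primer array (-1.32) below all others there, while Gdf10 (0.51 to 1.09 at 4 h) shares its upper range with Tgfbr1 (0.26 to 0.95).

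Across the family, 1 of the 11 probes passed the limma test between 4 h and 20 min, Tgfb2 probe 1953, against 0.586% of all probes (29 of 4952, and between 7 and 45 with 1 array left out), and nothing is read from this count because Tgfb2 was chosen with that difference known. At 4 h against the same-RNA arrays 0 of 11 passed, against 0.0606% of all probes (3 of 4952), and 3 had an unadjusted p below 0.05, against 9.92% of all. At 20 min 0 of 11 passed, against 0.0404% of all probes (2 of 4952), and 1 had an unadjusted p below 0.05, against 5.13% of all. Those below 0.05 were Tgfb2 probe 1953, Gdf10 and Tgfbr1 at 4 h and Gdf10 at 20 min. Tgfb2 and Gdf10 were chosen with their ratios known, so nothing is read from these counts either. The median over the 11 probes was 0.04 at 4 h and 0.04 at 20 min against the same-RNA arrays and 0.06 between the times, where all probes had medians of -0.01, 0.00 and -0.01. Above 0 were 7, 6 and 6 of the 11, against 48.6%, 50.9% and 48.0% of all probes. The family thus had ratios on both sides of 0.

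Groups of arrays did not overlap in 2 of the 11 probes at 4 h (Tgfb2 probe 1953 and Gdf10), against 6.76% of all probes. At 20 min this held for 1 probe (Gdf10), against 7.05% of all, and between the times for 1 (Tgfb2 probe 1953), against 6.54%. Both genes were chosen with their ratios known, so nothing is read from these counts. The other probes of the family overlapped in every comparison. Among the 7 probes of the 6 genes not singled out, the limma adjusted p lay between 0.435 and 0.947 at 4 h, 0.886 and 0.994 at 20 min, and 0.214 and 0.991 between the times. The number with an unadjusted p below 0.05 was 1 at 4 h (Tgfbr1), 0 at 20 min and 2 between the times (Tgfbr1 and Gdf11, against 13.6% of all probes).

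**Figure D3:**
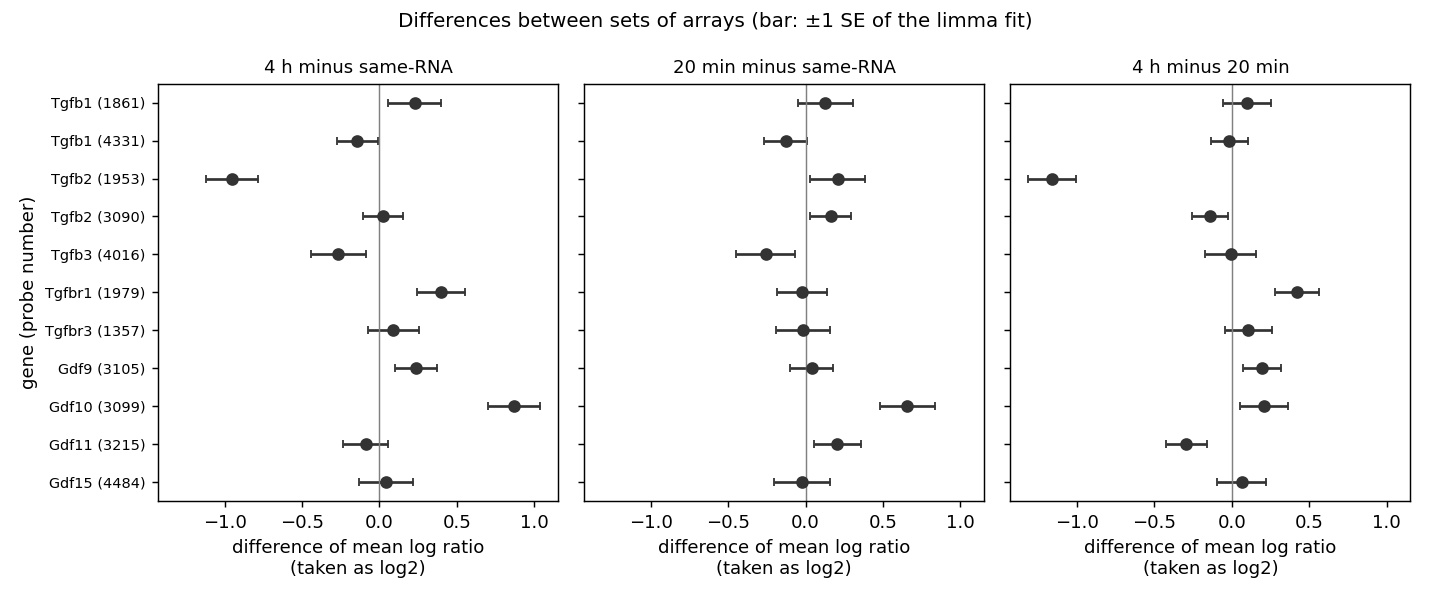
Difference of the mean log ratio (taken as log2, horizontal axis) of the 11 probes (vertical axis) between 4 h and same-RNA arrays, 20 min and same-RNA arrays, and 4 h and 20 min, with bars of 1 SE from the limma fit. Gdf10 lies at 0.87 and 0.66 in the first 2 panels, and Tgfb2 probe 1953 at -0.95 and -1.16 in the first and last.

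Array 6 mirrored arrays 1 to 5 for Slc2a5 but not for Gdf10 or Tgfb2 probe 1953. Relative to the same-RNA mean, Slc2a5 lay at 1.69 on arrays 1 to 5 and -1.62 on array 6. Gdf10 lay at 0.87 and 1.01, and Tgfb2 probe 1953 at -0.95 and -0.48, each on 1 side in both. Array 2, of the same pair, gave -1.98 for probe 1953 against -1.41 on array 6. The second Tgfb2 probe read -1.04 on array 6, below all of its other ratios, and -0.14 on array 2. Of the 11 probes 5 lay on the same side of the same-RNA mean on array 6 as on arrays 1 to 5, against 54.8% of all probes. Array 6 is a single array with a wide spread, so these positions have no replicate. If its colours were exchanged, a difference between HG and HF would change side, as Slc2a5 did and Gdf10 and Tgfb2 probe 1953 did not. Whether the colours were exchanged was not tested.

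**Figure D4:**
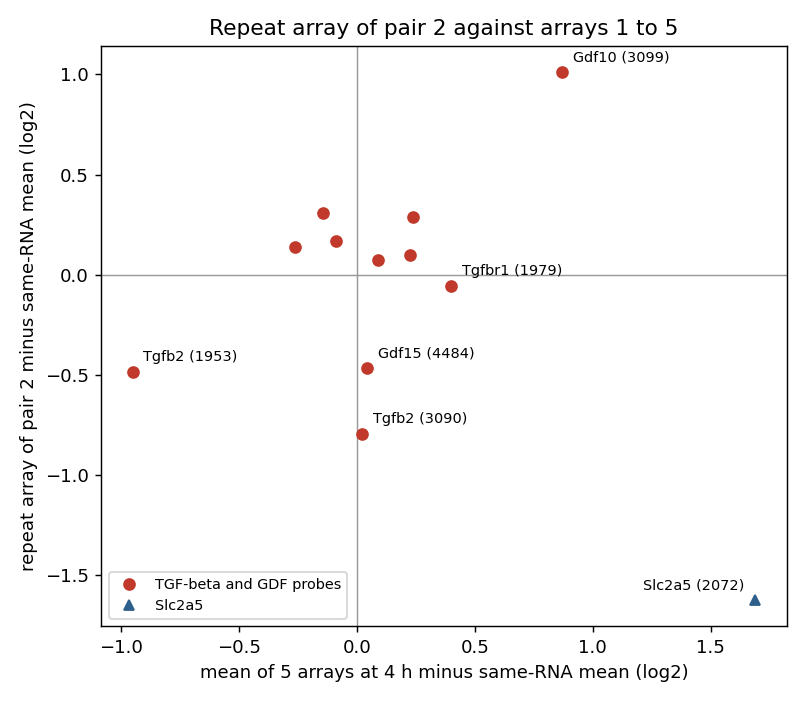
Position of array 6 relative to the same-RNA mean (vertical axis, log2) against that of the mean of arrays 1 to 5 (horizontal axis, log2) for the 11 probes and for Slc2a5. Slc2a5 lies at 1.69 and -1.62, on opposite sides, while Gdf10 (0.87 and 1.01) and Tgfb2 probe 1953 (-0.95 and -0.48) keep their side.

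The probes whose ratios followed each of the 3 singled-out genes most closely were sought over the 13 arrays with tissue RNA by Spearman correlation, as a description, since all probes share the arrays. For Tgfb2 probe 1953 these were Cp, the gene of the copper carrier ceruloplasmin (Spearman 0.92, Pearson 0.92), Grina (0.90 and 0.87) and the hedgehog ligand gene Shh (0.88 and 0.80), with means at 4 h of -0.48, -0.43 and -0.33. Their same-RNA means of -0.01, -0.17 and 0.09 lay near 0, unlike that of Tgfb2. For probe 3090 other genes came first, Cga (Spearman 0.91, Pearson 0.72), Gapdh (0.88 and 0.52) and Mthfd1 (0.87 and 0.59). Gdf10 was followed by Ywhag (0.88 and 0.72), Gpnmb (0.86 and 0.70) and Efna2 (0.81 and 0.76). Tgfb3 was followed by the cytokine gene Il9 (0.87 and 0.77), the mevalonate kinase gene Mvk (0.87 and 0.82) and Rgs8 (0.83 and 0.49). The probes of Cga, Gpnmb, Efna2 and Mvk lie among the first 750 numbers or above 4500, where most extreme ratios of array 1HG lay. Over 0.8 were 18 probes for Tgfb2 probe 1953, 5 for probe 3090, 3 for Gdf10 and 5 for Tgfb3.

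Other genes of the pathway were taken from fixed lists, of which no probe passed the limma test in any of the 3 comparisons. The list of other superfamily ligands also includes Bmp1, a procollagen protease gene that is no ligand. Between 4 h and 20 min the 16 probes of this list had a median difference of -0.03, with 2 of 16 below an unadjusted p of 0.05. The largest were Bmp7 (-0.31), Inhbe (-0.31), an inhibin subunit gene, and Gdnf (-0.27), the neurotrophic ligand of enteric neurons, with adjusted p between 0.251 and 0.568. Bmp7 had ratios far below 0 on the same-RNA arrays too, with a mean of -1.45 there. Mstn, the myostatin gene, named here for its former symbol Gdf8, differed by 0.09 ± 0.13 (SE; adjusted p = 0.837). Other receptors and co-receptors (15 probes) had a median of 0.06 and 2 of 15 below 0.05, with Acvrl1, a type I receptor of endothelium, at -0.51 ± 0.14 (adjusted p = 0.137) and both probes of Gfra2, a co-receptor for neurturin, at -0.40 and -0.31.

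Of the 9 probes for Smads and their partners 1 had an unadjusted p below 0.05 between the times, with a median of -0.04. Smad2 lay at -0.50, Smad5 at 0.31 and Ppm1a, a phosphatase that acts on Smads, at 0.21 (limma adjusted p between 0.252 and 0.785). The SE of Smad2 was 0.57, in a fit whose spread per probe includes its ratio of 3.78 on array 1HG. Without 1HG 2 of the 9 probes had an unadjusted limma p below 0.05, 1 higher and 1 lower at 4 h. Among 18 probes for latency, activation and antagonists, with a median of -0.01, the protease genes Plat (-0.45) and Mmp2 (0.28) and the follistatin gene Fst (-0.27) were largest, and 2 of 18 were below 0.05. The 24 probes of genes known as TGF-beta targets had a median of -0.04 and 3 of 24 below 0.05. Klf10, an early TGF-beta response gene, was at -0.74 ± 0.19 (adjusted p = 0.124), the repressor gene Snai1 at 0.46 and the cell cycle inhibitor gene Cdkn1a at 0.39. All probes together had a share of 13.6% below 0.05 in this comparison.

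**Figure D5:**
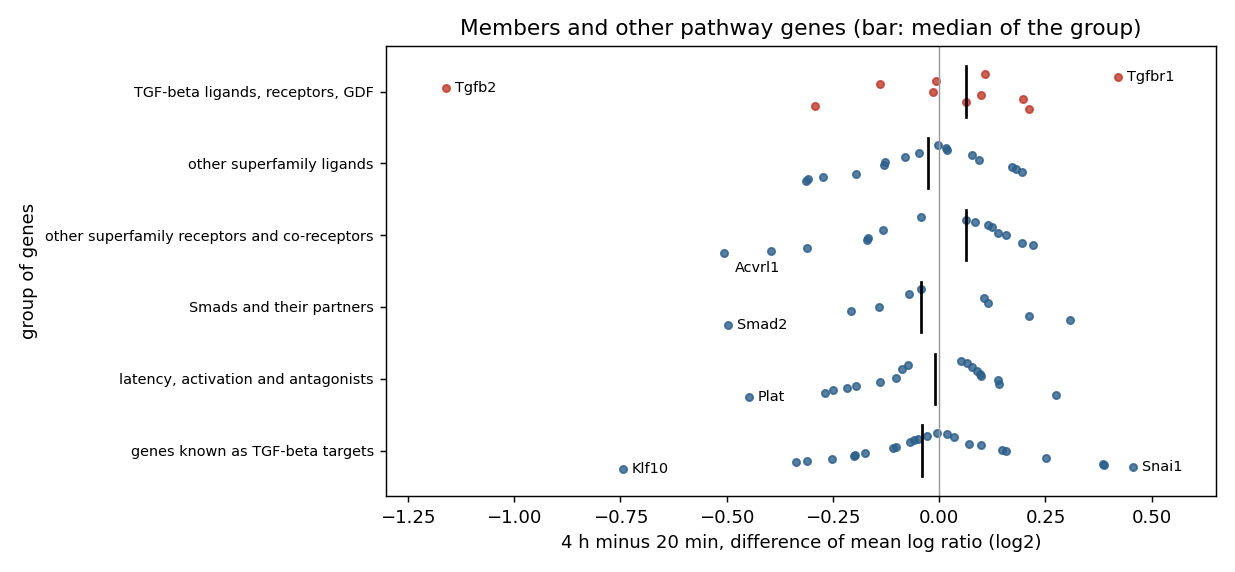
Difference of the mean log ratio between 4 h and 20 min (taken as log2, horizontal axis) for the 11 TGF-beta and GDF probes and for 5 lists of other pathway genes (vertical axis), 1 point per probe, with a bar at the median of each list. Tgfb2 probe 1953 (-1.16) lies outside the range of all 5 lists, whose lowest value is Klf10 at -0.74. Tgfb2 was chosen with this difference known, so nothing is read from that position. The other Tgfb2 probe, 3090, lies at -0.14.

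Against the same-RNA arrays at 4 h the medians of the 5 lists were 0.03 for ligands, 0.02 for receptors, 0.04 for Smads, -0.06 for latency and antagonists and -0.13 for targets. At 20 min they were 0.03, 0.03, 0.05, 0.03 and -0.08 in the same order. The largest single differences rested on array 1HG. Tsc22d1, a known TGF-beta target, differed by -4.36 at 4 h with a ratio of 12.5 on 1HG, and by -0.13 without that array. Acvr1b, a type I activin receptor gene, differed by 2.08 and by -0.09 without 1HG, Smad2 by -1.60 and -0.45, and Bmp1, a procollagen protease gene, by -1.23 and 0.01. Without 1HG the differences at 4 h in these 5 lists lay between -0.51 and 0.62, with 0 called in limma and between 0 and 1 probe of a list below an unadjusted p of 0.05.

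Markers of the cell types of the gut wall were set beside these ratios, and no marker passed in any comparison. Fewer cells of a type and less RNA per cell cannot be told apart in such bulk RNA. Between 4 h and 20 min the median was -0.06 for 6 smooth muscle probes (range -0.47 to 0.27), -0.06 for 8 fibroblast probes (-0.21 to 0.07), 0.02 for 11 probes of enteric neurons and glia (-0.31 to 0.24), -0.04 for 6 leukocyte probes (-0.33 to 0.34), -0.12 for 8 probes of absorptive epithelium (-0.50 to 0.34) and -0.10 for 7 pancreas probes (-0.40 to 0.28). At 4 h against the same-RNA arrays the marker medians were -0.06, -0.12, 0.07, -0.05, -0.09 and -0.34 in the same order. Of 7 pancreas probes 6 lay below 0, where 48.6% of all probes lay above 0. Without 1HG 5 pancreas probes lay below 0 and 2 above, with a median of -0.25. The calponin gene Cnn1, a smooth muscle marker, differed by -0.71 (-0.70 without 1HG), with no overlap of the arrays, and Fabp2, a fatty acid binding protein gene of enterocytes, by -0.56 (-0.48 without 1HG), on the side of Tgfb2 probe 1953 (limma adjusted p = 0.257 and 0.391). The other smooth muscle markers lay between -0.19 and 0.20 without 1HG. Of the 8 probes of absorptive epithelium, Fabp2 included, 4 lay above 0 and 4 below without 1HG, from -0.48 to 0.64. The part of these cell types in the ratios of Tgfb2 and Gdf10 was not tested.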

How the data were processed

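RNA of perfused rat small intestine was measured on 2-colour arrays. The values the authors deposited for 4952 probes on 14 arrays are log ratios of unstated base, read as log2 by assumption, with 0 missing. Scanner, background correction, normalization, log base and direction were not given in the sources used here. Medians per array lay between -0.07 and 0.02 before any step of this work. Dim probes could not be set apart, and no filter was used.

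Of the probes 4426 have 1 gene symbol in the platform annotation, 2 have several and 524 none. Each array was centred on its median and every probe was kept on its own. A single limma 3.58.1 fit in R 4.3.3 (lmFit and eBayes) held 12 arrays in 3 groups, with 9 residual and 2.88 prior degrees of freedom. Calls were made at a Benjamini-Hochberg adjusted p below 0.05 over all probes. The fit was also run on simulated data, the outcome of which is not reported here. Named are all member probes, up to 3 genes per list with the largest difference, and the 3 probes most like each singled-out probe. Members, lists and the treatment of array 6 were chosen with earlier results of these data known. Figures used matplotlib 3.10.9.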

Additional observations from a re-analysis of the deposited data

Results flagged for a closer look

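Gdf11 on 4 h replicate 5 read 0.23 and stood apart from the other 4 arrays at 4 h, by a gap of 0.807 of the whole range (Dixon). Of 22 sets of arrays examined 1 was marked, where chance marks about 1 in 20.

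Tgfb2 read -1.41 (probe 1953) and -1.04 (probe 3090) on array 6, the repeat of pair 2, below all 3 same-RNA ratios of each probe. Tgfb3 read -1.32 on the primer array, below its same-RNA ratios of 0.27, -0.18 and 0.19. These arrays were in no test, and each value comes from a single array.

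Tgfb2 probe 1953 differed between 4 h and 20 min by -1.16 in the limma fit over all probes, a difference known when the gene was chosen.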

How the results depend on the processing

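In limma 3 probes passed at 4 h, 2 at 20 min and 29 between the times. With array 6 averaged into array 2 as deposited 0 passed in each comparison (348, 214 and 471 below an unadjusted p of 0.05). With its sign turned the counts were 3, 0 and 18, with quantile normalization 2, 2 and 18, and with arrays scaled to 1 spread 3, 0 and 19. With only the groups compared in the fit 0 passed at 20 min. Across the settings with 0 calls at 20 min between 182 and 456 probes had an unadjusted p below 0.05. With the pair number as a replicate block the counts were 3, 0 and 13, and 1 member probe, Tgfb2 probe 1953, passed at 4 h (-1.10). The same-RNA arrays carry RNA of 4 h pairs 1 and 3, but with 1 RNA in both channels a difference within a pair cancels there. The block was also fitted over all 12 arrays, so the -1.10 uses the pair numbers at 20 min too. For 4 h against 20 min the block has no basis in the labels. Deviations of same-numbered arrays at 4 h and 20 min correlated at -0.07, 0.17, -0.03 and -0.02. Only number 2 correlated best with its own. Against 0, without the same-RNA arrays subtracted, 801 probes passed at 4 h and 403 at 20 min. Of these 3 were members at 4 h (Tgfb2 probe 1953, Gdf10 and Tgfbr1) and 2 at 20 min (Tgfb2 probe 1953 and Gdf10). This setting keeps any offset seen on the same-RNA arrays, where probe 1953 had a mean of -0.93. Relative to that mean probe 1953 differed by 0.21 at 20 min. Tgfb2 and Gdf10 were chosen with their ratios known, so nothing is read from their calls in any setting. With 1 array left out the counts ran from 2 to 6 at 4 h, 0 to 2 at 20 min and 7 to 45 between the times. There leaving out 4 h replicate 1, 20 min replicate 3 or 4 or 3HF gave 10, 4 h replicate 3 gave 16, 20 min replicate 1 gave 13, 20 min replicate 2 gave 7, 3HG gave 15 and 1HG gave 45. Member calls then ran from 0 to 1 at 4 h (1 without 4 h replicate 5), stayed at 0 at 20 min and at 1 between the times. Between the times 0 members passed with quantile normalization or with array 6 averaged in, either way. Turning the sign of array 6 cancels an offset common to both channels in array 2 alone, while the other arrays keep it. For probe 1953, with its same-RNA mean of -0.93, that setting therefore cannot show whether the difference holds. As 1 value per gene Tgfb2 had a difference of -0.65 between the times and -0.46 at 4 h. At 4 h Tgfb2 probe 1953 on its own lay below 0 in the other 21 alternatives, from -1.88 to -0.53. Gdf10 lay above 0 in all 22 alternatives at 4 h, from 0.67 to 1.11. Of 715 alternative values of single probes 695 counted as the same as in the main fit. Called probes counted if still called on the same side of 0. Uncalled probes counted if not newly called and moved by less than the larger SD of the groups compared. Of the rest 10 moved further, 7 were newly called and 3 lost their call. The causes were not tested. Signal over background was not analysed here, and lists without array 1HG were an alternative added after seeing the data.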
